A study of Homo sapiens with 14 samples.

Results

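The insulin-like growth factor (IGF) axis was described in RNA-seq libraries of human cells taken from pluripotency to pancreatic β-like cells. It was represented by 10 genes, chosen by name from the 60624 gene identifiers listed in each library. They were the ligand gene IGF2, the readthrough gene INS-IGF2, the receptors IGF1R and IGF2R, and the binding protein genes IGFBP1, IGFBP2, IGFBP3, IGFBP4, IGFBP5 and IGFBP6. All 10 were found once each, and their levels are given as TPM, a transcript abundance that is corrected for length and scaled to a common total in each library.

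The 14 libraries came from MEL1, a human embryonic stem cell line, so every group shares the genetic background of 1 line. According to the study's methods this line carries a GFP reporter in an INS allele. Batch 1 held 1 library each of undifferentiated cells on CF1 feeder cells (hPSC), definitive endoderm (DE), pancreatic progenitors made by stepwise differentiation (PP2) and β-like cells made from stem cells (SC-β). Batch 2 held 2 libraries each of expandable pancreatic progenitors at passage 9 (ePP-P9) and passage 21 (ePP-P21), and of β-like cells differentiated from expandable progenitors (ePP-β). The expandable progenitors (ePPs) were grown on feeder cells in a medium with EGF, bFGF, the compound 616452, B27 supplement and I-BET151. Batch 3 held 2 libraries each of hPSC-derived progenitors kept for 7 days with DMSO, the solvent, or with 1 µM I-BET151, a small molecule that blocks BET bromodomain proteins. No source says that the replicates were separate cultures, so p-values measure only the spread between these libraries, which may be technical. Each of the 4 single-library groups has no replicate check and entered no test.

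IGF2 is a secreted growth factor of fetal tissues that signals through the receptor tyrosine kinase IGF1R and through an isoform of the insulin receptor. IGF2R, which is also the cation-independent mannose 6-phosphate receptor, takes up IGF2 and carries it to lysosomes. The IGFBPs are secreted proteins that bind IGFs, prolong their life outside the cell and limit or present them to the receptor, and some also act without IGFs. In the developing pancreas IGF2 is known as a growth factor of the mesenchyme and the epithelium. IGF2 is imprinted and is normally transcribed from the paternal copy.

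The labels were checked against marker genes. The 5 pluripotent cell markers summed to 4777 TPM in hPSC, 1534 TPM in DE, 299 TPM in PP2 and 16.3 TPM in SC-β. They summed to at most 173 TPM in the libraries of batches 2 and 3, and the 5 definitive endoderm markers to 9591 TPM in DE. All 5 pancreatic progenitor markers passed 1 TPM in PP2, in all ePP libraries and in batch 3. They also did so in ePP-β and SC-β, so this count does not set progenitors apart from β-like cells. The 6 β cell markers summed to 11772 and 18175 TPM in the ePP-β libraries and to 20987 TPM in SC-β, beside α cell markers at 27293, 29074 and 99347 TPM. Markers of other cell types are given beside the results. In bulk libraries, fewer cells of a type and less RNA per cell cannot be told apart.

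IGF2 was close to the detection filter of 1 TPM in the first stages and was among the most abundant transcripts in every pancreatic group. It was at 1.26 TPM in hPSC and 2.98 TPM in DE, and at 3178 TPM in PP2. The 4 ePP libraries had 4564, 3834, 3309 and 3426 TPM (ePP-P9 replicates 1 and 2, then ePP-P21 replicates 1 and 2). The ePP-β libraries were in the same range, with 3539 and 3873 TPM, and SC-β was lowest of the 12 libraries from PP2 onward, at 2829 TPM. The progenitors of batch 3 stood above all other libraries, with 7142 and 7883 TPM under DMSO and 8052 and 6107 TPM under I-BET151. Among protein-coding genes IGF2 ranked between 2 and 21 in the 12 libraries from PP2 onward, and ranked 12745 in hPSC. From DE to PP2, where IGF2, IGFBP3 and IGFBP5 were higher, the hepatocyte markers went from 3.92 to 3280.4 TPM in sum (1 and 6 of 7 at 1 TPM or more). The mesenchymal and fibroblast markers went from 58.7 to 1570.1 TPM (5 and 10 of 10), and the endothelial markers from 14.2 to 88.8 TPM (2 and 6 of 6). Over the same step the pancreatic progenitor markers went from 11.5 to 429 TPM and the α cell markers from 18.3 to 757 TPM. In the ePP libraries the hepatocyte markers summed to 241 to 280.5 TPM, the mesenchymal markers to 60.8 to 95.1 TPM and the endothelial markers to at most 1.67 TPM. The part of all these markers in the levels of the 10 genes was not tested.

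Ordered by group mean, IGF2 ran from DMSO and I-BET151, whose ranges overlapped, through ePP-P9 and ePP-β, whose ranges also overlapped, to ePP-P21, PP2, SC-β, DE and hPSC. Neighbours across batches in this order cannot be told apart from a batch difference. When each library was centred on the median of genes present in all libraries, SC-β (3135 TPM) came above ePP-P21 (2928 TPM) and PP2 (2525 TPM).

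**Figure D1:**
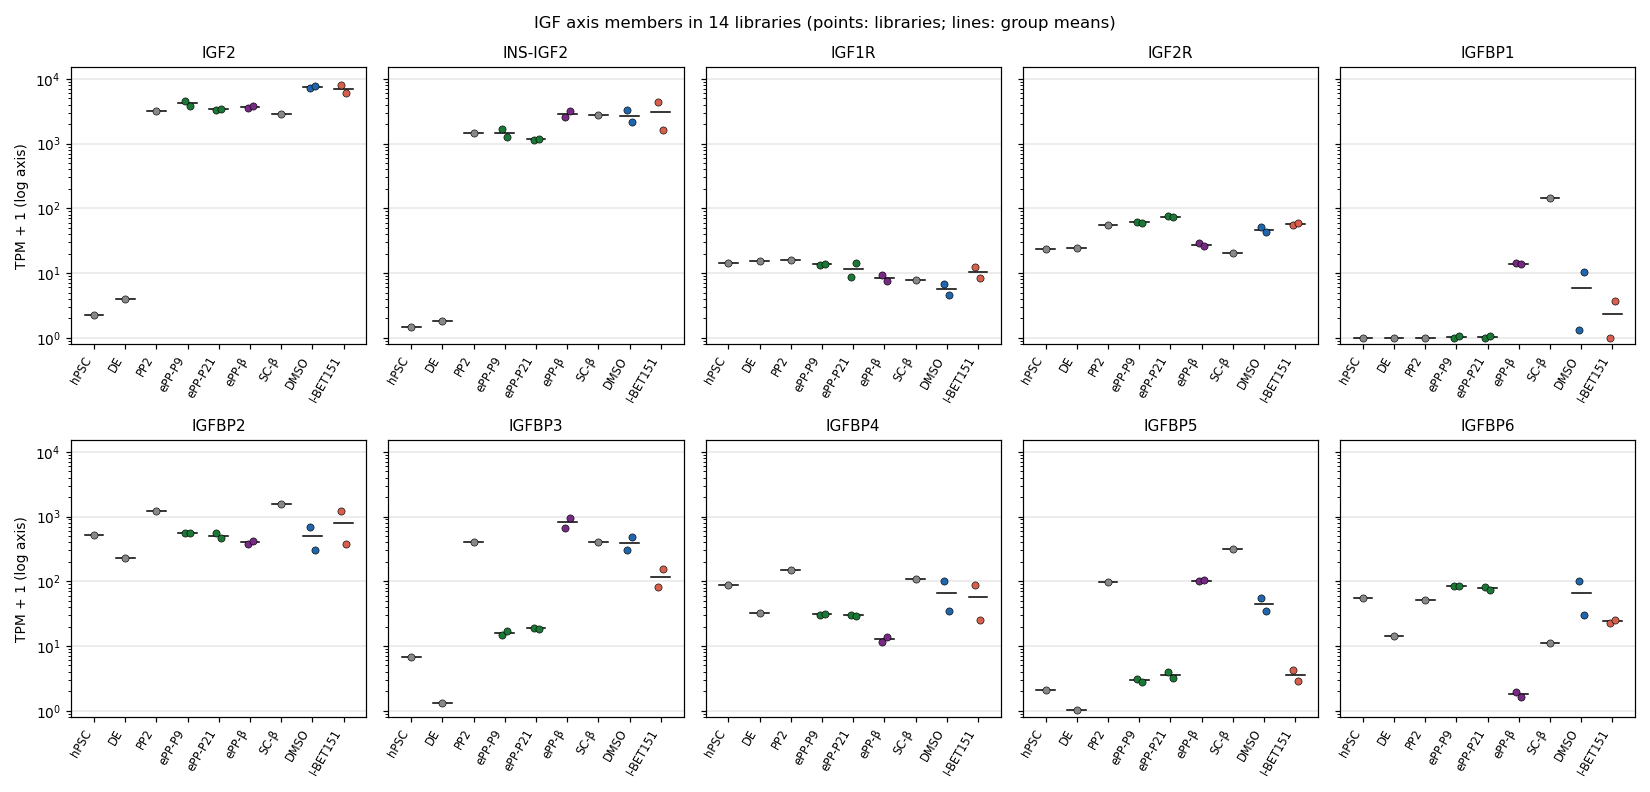
TPM + 1 on a log axis (vertical) for each of the 10 genes in the 9 groups (horizontal); points are libraries and lines are group means. IGF2 is at 2829 TPM or more in every library from PP2 onward, IGFBP3 and IGFBP5 are low in the ePP libraries and high in PP2, ePP-β and SC-β, and IGFBP6 is under 1 TPM in both ePP-β libraries.

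The IGF2 values have to be read with the features that overlap it. IGF2 (ENSG00000167244, chr11:2129112-2158391, minus strand, GRCh38) and INS-IGF2 (ENSG00000129965, chr11:2132538-2161209, minus strand) lie on the same strand, and INS (chr11:2159779-2161221) lies 1387 bases beyond the IGF2 start. INS-IGF2 transcripts run from INS exons into IGF2 exons. Of the 1826 exonic bases of INS-IGF2, 1460 (80.0%) are also IGF2 exon, 246 are INS exon and 120 belong to neither. Reads in shared exons do not tell the genes apart, so the split between them was the estimate of the authors' assembler.

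A pair of further annotated features, noticed after the values were seen, takes part in that split. ENSG00000284779, a protein-coding gene without a symbol at chr11:2131395-2149603 on the minus strand, has 2711 of its 2861 exonic bases (94.8%) in IGF2 exons. Its level was 0.801 TPM in hPSC, 2.03 TPM in DE and 2495 TPM in PP2, 2787 to 3842 TPM in the 4 ePP libraries, 3109 and 3267 TPM in ePP-β, and 5158 to 6592 TPM in batch 3. ENSG00000240801, a long noncoding RNA at chr11:2129121-2129964 on the minus strand, has all of its 373 exonic bases inside IGF2 exon. It was at 1.25 TPM in hPSC, 4.21 TPM in DE, 4895 TPM in PP2 and 4282 to 13796 TPM in the 12 libraries from PP2 onward. ENSG00000284779 followed IGF2 across the groups. ENSG00000240801 was likewise low in hPSC and DE and high from PP2 onward, but differed from IGF2 in the β-like cells. It was at 5786 TPM in SC-β, above PP2. Both ePP-β libraries lay above all ePP libraries for it (limma log2 fold change 0.30 ± 0.08 SE, adjusted p = 0.0203, under the fold threshold). IGF2 alone held between 20.5% (SC-β) and 33.4% (hPSC) of the TPM summed over the 4 features.

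INS-IGF2 followed IGF2 from stage to stage but took a larger share in β-like cells. It was at 0.458 TPM in hPSC, 0.826 TPM in DE and 1440.5 TPM in PP2. The ePP libraries had 1692 and 1274 TPM at passage 9 and 1145 and 1187 TPM at passage 21, the ePP-β libraries 2554 and 3245 TPM, and SC-β 2801 TPM. The ePP-β libraries lay above all ePP libraries. As a share of IGF2 plus INS-IGF2, INS-IGF2 made up 24.9% to 27.0% in the ePP libraries, 41.9% and 45.6% in ePP-β and 49.8% in SC-β.

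INS itself, the insulin gene, was at most 0.0104 TPM in the ePP libraries, where INS-IGF2 was at 1145 TPM or more. INS was at 10916 and 17374 TPM in ePP-β, 20657 TPM in SC-β and at most 3.03 TPM in batch 3. In batch 3, INS-IGF2 was at 3285 and 2142 TPM under DMSO and 4463 and 1626 TPM under I-BET151, so the groups overlapped.

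**Figure D2:**
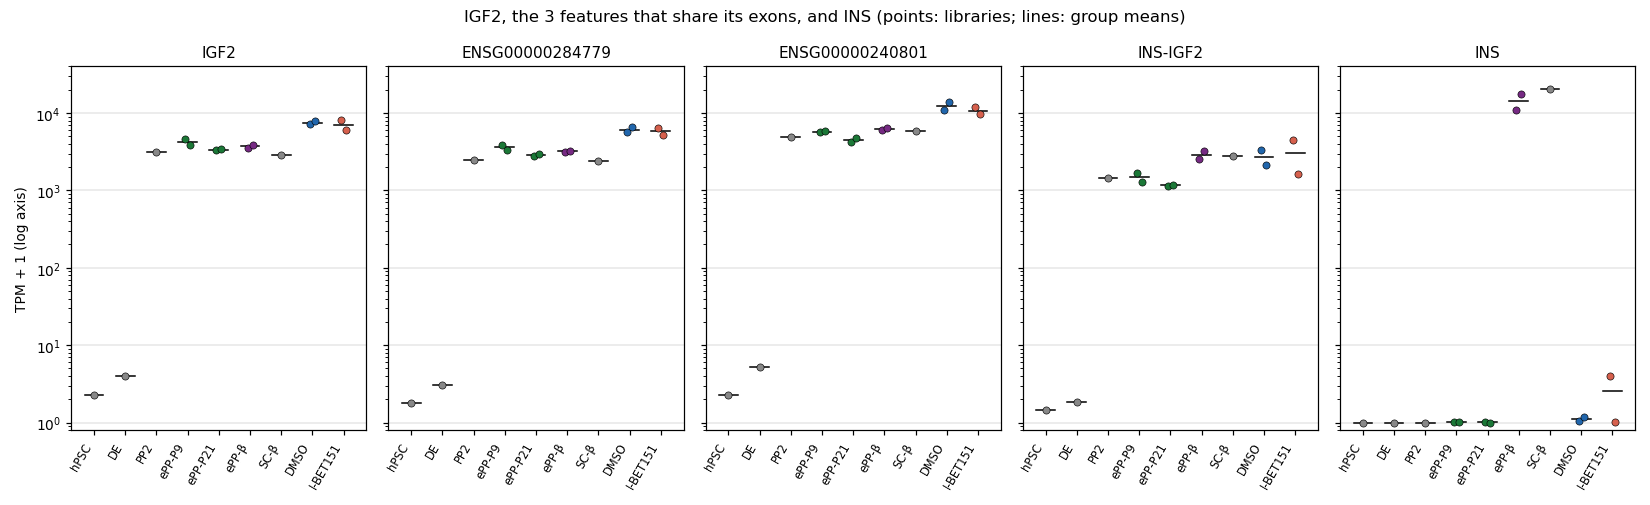
TPM + 1 on a log axis (vertical) for IGF2, the 3 features that share its exons and INS, in the 9 groups (horizontal); points are libraries and lines are group means. The 4 features of the IGF2 locus are all higher in PP2 than in DE, whereas INS is at 10916 TPM or more in ePP-β and SC-β and at 3.03 TPM or less elsewhere.

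RefSeq gives INS-IGF2 and INS the same start, so the 120 bases before it (GRCh38.p14, chr11:2161210-2161329, minus strand) are shown as the shared upstream sequence. The capitals mark a TATAAA that begins 30 bases before the start, and the 12 bases nearest to the start lie in an annotated INS exon.

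INS-IGF2 and INS: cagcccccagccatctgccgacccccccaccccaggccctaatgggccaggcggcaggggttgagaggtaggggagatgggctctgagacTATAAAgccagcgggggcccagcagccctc

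The neighbours of IGF2 at the locus behaved differently from each other. IGF2-AS, an antisense RNA on the plus strand, shares 333 exonic bases with IGF2. The library kit does not mark strand and the use of strand in counting was not stated, so reads of the antisense pair cannot be told apart. IGF2-AS was listed at 0 in hPSC, at 0.0847 TPM in DE and 81.6 TPM in PP2, between 44.2 and 47.6 TPM in the ePP libraries, at 39.2 and 51.0 TPM in the ePP-β libraries, and at 142 TPM in SC-β. It was at 55.6 and 57.9 TPM under DMSO and 103 and 105 TPM under I-BET151, which did not overlap (log2 fold change 0.87 ± 0.29 SE, adjusted p = 0.265). H19, the imprinted noncoding RNA 124559 bases beyond the IGF2 end, did not pass 1.91 TPM in any library, and was at most 0.0414 TPM in the ePP libraries. IGF1, the other IGF ligand, did not pass 0.112 TPM in any library.

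The receptors were expressed at much lower levels than the ligand gene, and they were ordered differently. IGF1R (chr15:98648539-98964530, plus strand) was at 13.2 TPM in hPSC, 14.5 TPM in DE and 14.8 TPM in PP2. The ePP-P9 libraries had 12.5 and 12.7 TPM, the ePP-P21 libraries 7.74 and 13.3 TPM, the ePP-β libraries 8.21 and 6.67 TPM, and SC-β 6.84 TPM. Its lowest levels were under DMSO (5.88 and 3.55 TPM), below both I-BET151 libraries (11.5 and 7.54 TPM).

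IGF2R (chr6:159969082-160113507, plus strand) was at 22.6 TPM in hPSC and 23.3 TPM in DE, and at 53.4 TPM in PP2. It was highest in the ePP libraries, with 61.4 and 59.2 TPM at passage 9 and 73.9 and 73.0 TPM at passage 21. The β-like cells had the level of the first stages again, with 27.9 and 25.4 TPM in ePP-β and 19.8 TPM in SC-β. IGF2R exceeded IGF1R in TPM in all 14 libraries, from 1.60 times in DE to 11.7 times in DMSO replicate 2. INSR, the insulin receptor, lay between 2.53 TPM (DE) and 13.7 TPM (DMSO replicate 2), and was above IGF1R in the ePP-β and DMSO libraries, in ePP-P21 replicate 1 and in I-BET151 replicate 2.

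IGFBP2 was the main binding protein transcript in most libraries. It encodes a carrier of IGFs that is abundant in fetal serum. It was at 516 TPM in hPSC, 230.5 TPM in DE, 1207 TPM in PP2 and 1585 TPM in SC-β, between 459 and 561 TPM in the ePP libraries, and at 373 and 425 TPM in ePP-β. In the ePP libraries IGFBP2 made up 79.3% to 81.2% of the TPM summed over the 6 IGFBP genes. It was the largest of the 6 in every library but the ePP-β pair and DMSO replicate 2, where IGFBP3 was above it.

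In ePP-β, IGFBP3 made up 57.5% and 63.1% of the IGFBP sum. IGFBP3 encodes the main IGF carrier of adult serum. The summed level itself was between 579 and 692 TPM in the ePP libraries, 1168 and 1506 TPM in ePP-β, 1895 TPM in PP2 and 2566 TPM in SC-β. SC-β therefore differed from ePP-β in its makeup, with 61.8% IGFBP2, 15.7% IGFBP3, 12.3% IGFBP5 and 5.63% IGFBP1. The mesenchymal markers summed to 2802 TPM in SC-β and to 59.8 and 47.4 TPM in ePP-β, the α cell markers to 99347 TPM against 27293 and 29074 TPM, and the hepatocyte markers to 5883 TPM against 3700.5 and 3747 TPM. Their part in the difference was not tested. SC-β and ePP-β come from different batches, which cannot be told apart from the route of differentiation.

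**Figure D3:**
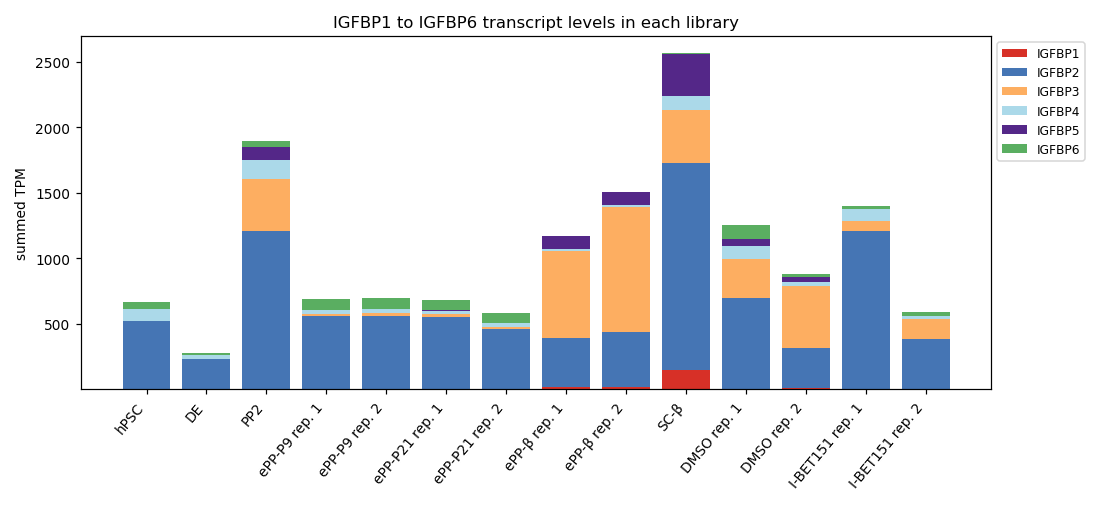
Summed TPM of IGFBP1 to IGFBP6 (vertical) in each of the 14 libraries (horizontal), with 1 colour per gene. IGFBP2 makes up most of each ePP bar, IGFBP3 most of each ePP-β bar, and the SC-β bar is the tallest at 2566 TPM.

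The first comparison set ePP-β against ePP and shows how the axis differed between β-like cells and the expandable progenitors from which they were made. The ePP medium held I-BET151, whereas the differentiation media in the study's methods list none. The media listed there for the later stages also hold no EGF or bFGF. They add components such as T3, heparin and, at first, forskolin. Cell stage and these changes of medium cannot be told apart in any of these differences. Of the 10 genes, 7 were called, 4 higher and 3 lower. Calls needed both an adjusted p below 0.05 and a log2 fold change larger than 1 in size. Over all genes tested 27.8% were called, 17.9% higher and 9.86% lower, so calls were common in this comparison. Higher in ePP-β were IGFBP3, IGFBP5, IGFBP1 and INS-IGF2, and lower were IGFBP6, IGF2R and IGFBP4. IGFBP1 and IGFBP6 each reached 1 TPM in 1 of the groups only, IGFBP1 in ePP-β and IGFBP6 in ePP. They could pass the filter only through the group where they are high and had to differ, so their calls add nothing to the count. Of the 8 other genes, 3 were called higher and 2 lower. The shares over all genes still include genes that passed the filter through 1 group only.

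IGFBP3 (chr7:45912245-45921874, minus strand) was at 13.7, 15.8, 18.2 and 17.1 TPM in the 4 ePP libraries. It was at 671 and 951 TPM in the ePP-β libraries, well apart from the progenitors. Its mean was 50.0 times higher in ePP-β, with a log2 fold change of 5.55 ± 0.15 (SE) and an adjusted p of 5.9e-06. SC-β had 403 TPM, close to PP2 at 396 TPM, whereas hPSC had 5.80 TPM and DE 0.3035 TPM.

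IGFBP5 (chr2:216672105-216695549, minus strand), which encodes a binding protein that also attaches to extracellular matrix, was also low in ePP and high in ePP-β. The ePP libraries had 2.12, 1.79, 2.94 and 2.25 TPM, and the ePP-β libraries 98.7 and 104 TPM. Its mean was 44.6 times higher in ePP-β (log2 fold change 4.98 ± 0.14 SE, adjusted p = 6.7e-06). It was at 1.07 TPM in hPSC, 0.0363 TPM in DE, 95.4 TPM in PP2 and 315 TPM in SC-β. IGFBP5 shares 487 exonic bases with the antisense RNA DIRC3-AS1, which did not pass 0.816 TPM in any library.

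IGFBP1 (chr7:45888360-45893660, plus strand), a secreted binding protein of liver that insulin represses, was listed at 0 in 2 ePP libraries and was at 0.0719 and 0.0552 TPM in the others. The ePP-β libraries had 13.1 and 12.9 TPM, and SC-β had 144 TPM. On the log2(TPM + 1) scale the difference was 3.76 ± 0.14 (SE), given as a description because of the filter. No ratio of the TPM values is given, since exact zeros can be failed estimates.

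Between ePP and ePP-β, markers of hepatocytes rose with these 3 genes, and so did those of α and β cells. The α cell markers summed to 12.3 to 24.1 TPM in the ePP libraries and to 27293 and 29074 TPM in ePP-β. The β cell markers summed to at most 1.69 TPM in the ePP libraries and to 11772 and 18175 TPM in ePP-β. The 7 hepatocyte markers, among them ALB and AFP, summed to 241 to 281 TPM in the ePP libraries, with 5 of 7 above 1 TPM. They summed to 3700.5 and 3747 TPM in ePP-β, with 6 of 7 above 1 TPM, and to 5883 TPM in SC-β, with all 7. In PP2 the hepatocyte markers summed to 3280.4 TPM, with IGFBP1 at 0.00342 TPM, IGFBP3 at 396 TPM and IGFBP5 at 95.4 TPM. ALB was between 0.333 and 0.891 TPM in ePP and at 54.9 and 42.2 TPM in ePP-β. The part of these markers in the IGFBP levels was not tested. The 10 mesenchymal and fibroblast markers summed to 47.4 to 95.1 TPM in the ePP and ePP-β libraries, whereas PP2 had 1570 TPM and SC-β 2802 TPM.

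INS-IGF2 was 2.19 times higher in the mean of ePP-β (log2 fold change 1.14 ± 0.15 SE, adjusted p = 0.00114). INS, with which it shares exons, went from at most 0.0104 TPM in ePP to 10916 and 17374 TPM in ePP-β, and its part in the INS-IGF2 value was not tested. The INS-IGF2 call was lost without ePP-β replicate 2 (log2 fold change 0.96, adjusted p = 0.00494) and when all 10 replicated libraries were fitted together (adjusted p = 0.0524).

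IGF2 did not pass the test, with a log2 fold change of -0.02 ± 0.10 (SE) and an adjusted p of 0.879. Its direction turned when overlapping features were summed. IGF2 with INS-IGF2 gave 0.38 ± 0.12 (adjusted p = 0.0337, under the fold threshold), and the sum of the 4 features that share IGF2 exons gave 0.26 ± 0.10 (adjusted p = 0.0664).

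IGFBP6 (chr12:53097436-53102345, plus strand), which encodes a binding protein that prefers IGF2 over IGF1, had the largest fall of the 10. It was at 84.5, 82.4, 80.7 and 72.2 TPM in the ePP libraries. It was at 0.971 and 0.611 TPM in ePP-β, below 1 TPM in both. The ePP mean was 101 times the ePP-β mean (log2 fold change -5.50 ± 0.12 SE, given as a description because of the filter). SC-β had 10.2 TPM, also the lowest level within its batch, where hPSC had 55.1 TPM, DE 13.5 TPM and PP2 50.0 TPM.

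IGF2R fell in ePP-β by 1.29 ± 0.08 (SE) on the log2 scale, with an adjusted p of 5.7e-05, and the ePP mean was 2.51 times the ePP-β mean. IGFBP4 (chr17:40443450-40457725, plus strand), whose product is cut by the protease PAPPA, was between 28.2 and 30.7 TPM in the ePP libraries and at 10.7 and 12.9 TPM in ePP-β. It fell by 1.25 ± 0.11 (SE, adjusted p = 0.000233), a call that was lost when all replicated libraries were fitted together (adjusted p = 0.103). IGFBP4 was not low in the other β-like cells, with 109 TPM in SC-β against 147 TPM in PP2, 31.2 TPM in DE and 87.7 TPM in hPSC.

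IGFBP2 had an adjusted p of 0.0128 with a log2 fold change of -0.42 ± 0.10 (SE), which did not pass the fold threshold, although both ePP-β libraries lay below all ePP libraries. IGF1R had a log2 fold change of -0.55 ± 0.22 (SE, adjusted p = 0.0785), with overlapping groups.

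**Figure D4:**
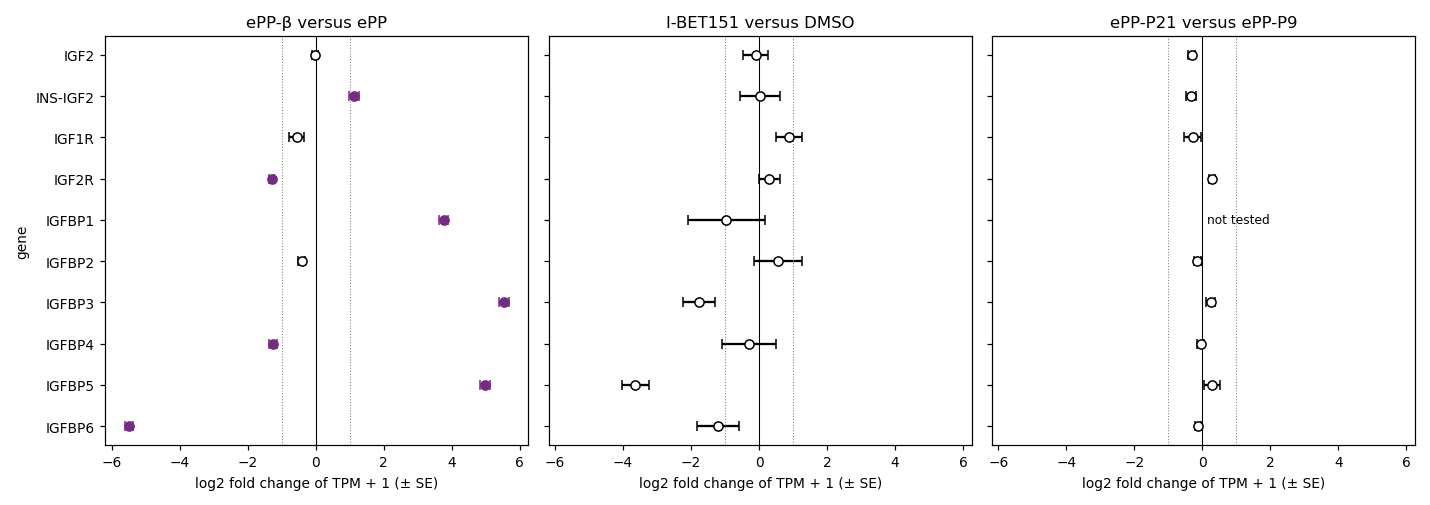
Log2 fold change of TPM + 1 (horizontal) for each of the 10 genes (vertical) in the 3 comparisons, with bars of 1 SE; filled points were called and dotted lines mark the fold threshold. In ePP-β versus ePP, 7 genes are filled, from -5.50 (IGFBP6) to 5.55 (IGFBP3). Among them, IGFBP1 and IGFBP6 reached 1 TPM in 1 of the groups only and had to differ. In I-BET151 versus DMSO none is filled and IGFBP5 lies farthest out at -3.64.

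Of 15 genes that neighbour the axis, 11 could be tested in ePP-β versus ePP. Among them, 5, with INS and STC2, reached 1 TPM only in ePP-β, passed the filter through that group alone and could only be higher. Of the 6 others, 3 were called higher and 0 lower, beside 17.9% and 9.86% of all genes, where genes that passed through 1 group only are still included. STC1 and STC2, which encode secreted glycoproteins that inhibit the IGFBP-cutting PAPPA proteases, and the binding protein-like gene IGFBPL1 had the largest differences after INS. STC1 was 4.66 ± 0.18 (SE) higher on the log2 scale (8.88 to 10.1 TPM in ePP, and 210.2 and 332 TPM in ePP-β). IGFBPL1 was 3.52 ± 0.15 higher, at 66.4 and 83.5 TPM in ePP-β. STC2 was at 8.08 and 14.7 TPM in ePP-β against at most 0.165 TPM in ePP. SC-β, of another batch, had STC1 at 8.65 TPM, IGFBPL1 at 36.5 TPM and STC2 at 15.35 TPM. INSR was at 5.45 to 9.22 TPM in ePP and 9.95 and 10.9 TPM in ePP-β and did not pass the fold threshold (log2 fold change 0.48 ± 0.14 SE, adjusted p = 0.0276).

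Of 28 genes of insulin and IGF receptor signalling, 27 could be tested, and 3 were called higher and 2 lower, 5 of 27, against 27.8% of all genes tested. Their median log2 fold change was -0.17, against -0.03 over all genes. FOXO1, a transcription factor restrained by this pathway, rose by 1.20 ± 0.15 (SE) to 12.7 and 12.8 TPM. GRB14, an adaptor that inhibits the insulin receptor, rose by 1.05 ± 0.14. PIK3R3, a regulatory subunit of PI3 kinase, fell by 1.49 ± 0.12 from between 47.0 and 57.0 TPM to 15.5 and 20.1 TPM. IRS1, the receptor substrate, fell by 1.36 ± 0.13 to 5.10 and 5.25 TPM. SC-β, of another batch, had FOXO1 at 5.34 TPM, GRB14 at 41.2 TPM, PIK3R3 at 10.8 TPM and IRS1 at 30.2 TPM. The ePP means were 5.01, 14.7, 51.8 and 14.9 TPM in that order.

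The second comparison set I-BET151 against DMSO and asks what 7 days of BET inhibition did to the axis in progenitors. Of the 10 genes, 0 were called by limma, 2 had an unadjusted p under 0.05. Over all 16687 genes tested 0.21% were called, 35 in number, and 15.2% had an unadjusted p under 0.05. In its own DESeq2 analysis the study reported many more genes at the same thresholds. The 0 calls here therefore do not show that the 10 genes were unchanged. The limma fit used here held no replicate block. The difference between replicates 2 and 1 had a Pearson's r of 0.675 between DMSO and I-BET151 over 16687 genes. No source says what the replicate numbers mark. With the replicate number as a block, limma called 2 of the 10 genes, IGFBP3 and IGFBP5, both lower, and many more of all genes. IGFBP3, IGFBP5 and IGFBP6 lay lower in both I-BET151 libraries than in both DMSO libraries, which held for 18% of all genes, and IGF1R and IGF2R lay higher, which held for 28.7%. All tested genes together had a median log2 fold change of 0.16, and the 10 genes had a median of -0.20.

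IGFBP5 was at 53.5 and 34.3 TPM under DMSO and at 3.27 and 1.90 TPM under I-BET151. I-BET151 replicate 2 lay within the range of the ePP libraries (1.79 to 2.94 TPM) and replicate 1 above it. The DMSO mean was 17.0 times the I-BET151 mean (log2 fold change -3.64 ± 0.40 SE, adjusted p = 0.058). Its log2 fold change was between -3.95 and -3.33 in the 4 fits that left out a library. Such fits assume that the lone library varies like the other group. The gene was called after median centring (adjusted p = 0.0339), quantile normalization (adjusted p = 0.0340) and with the replicate number as a block (adjusted p = 0.00362). Each of these 3 fits also called more of all genes than the main fit. With pseudocounts of 0.1 and 0.01 and with no filter, neither IGFBP5 nor any other gene was called. The highest adjusted p of IGFBP5 among the alternatives was 0.234.

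IGFBP3 was at 301 and 475 TPM under DMSO and at 79.5 and 155 TPM under I-BET151 (log2 fold change -1.76 ± 0.47 SE, adjusted p = 0.183). Without I-BET151 replicate 2 its log2 fold change was -2.24. IGFBP3 was called with the replicate number as a block (adjusted p = 0.0064), but not after median centring or quantile normalization. IGFBP6 was at 102 and 28.9 TPM under DMSO and 21.7 and 24.5 TPM under I-BET151, so that its difference (-1.20 ± 0.63, adjusted p = 0.439) rested mainly on DMSO replicate 1. Without that library it was -0.32.

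The hepatocyte markers summed to 10348 and 8561 TPM under DMSO and to 1287 and 3185 TPM under I-BET151, with all 7 above 1 TPM in both DMSO libraries and 6 in both I-BET151 libraries. AFP was at 5527 and 5198 TPM under DMSO and at 617 and 1872 TPM under I-BET151. FGB overlapped, with 167 and 172 TPM under DMSO and 37.1 and 327 TPM under I-BET151. Every other hepatocyte marker was lower in both I-BET151 libraries than in both DMSO libraries. The mesenchymal markers summed to 258 and 133 TPM under DMSO and 95.7 and 62.0 TPM under I-BET151. Of these, COL3A1, LUM, POSTN and TWIST1 were lower in both I-BET151 libraries, and PDGFRA was higher in both (3.53 and 3.71 TPM against 2.28 and 2.74 TPM). The other mesenchymal markers overlapped. The part of both marker lists in the IGFBP values was not tested.

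IGFBP1 was uneven within groups, at 0.329 and 9.44 TPM under DMSO and listed at 0 and at 2.67 TPM under I-BET151. IGFBP2 and IGFBP4 differed more between replicates than between treatments. IGFBP2 was at 694 and 301 TPM under DMSO and 1204 and 377 TPM under I-BET151, and IGFBP4 at 98.4 and 33.3 TPM and at 88.0 and 24.3 TPM. In both genes replicate 1 of each group was above replicate 2. Ribosomal protein genes took 20.3% (DMSO) and 16.8% (I-BET151) of TPM in the libraries numbered 1, against 27.9% and 27.8% in those numbered 2.

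Among the receptors, IGF1R had a log2 fold change of 0.88 ± 0.39 (SE, adjusted p = 0.379) and IGF2R, at 50.0 and 41.6 TPM under DMSO and 55.0 and 58.2 TPM under I-BET151, had 0.30 ± 0.30 (adjusted p = 0.695). IGF2 had -0.10 ± 0.36 (adjusted p = 0.930) and INS-IGF2 0.02 ± 0.59 (adjusted p = 0.99). Of the 9 neighbouring genes and the 26 signalling genes tested, 0 were called by limma, and 4 and 2 had an unadjusted p under 0.05.

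The ePP libraries, whose medium also held I-BET151, had IGFBP5 at 1.79 to 2.94 TPM and IGFBP3 at 13.7 to 18.2 TPM. IGFBP5 thus overlapped with the I-BET151 libraries, IGFBP3 was below them, and IGFBP6 at 72.2 to 84.5 TPM was above them. The batches and the times in culture differ between these groups and cannot be told apart.

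The third comparison set passage 21 against passage 9. Of the 9 genes tested, 0 were called by limma, and 2 had an unadjusted p under 0.05. Over all genes tested 1.13% were called and 23% had an unadjusted p under 0.05. IGFBP1 did not pass the filter on low values. IGF2 had a log2 fold change of -0.31 ± 0.10 (SE, adjusted p = 0.159), with both ePP-P21 libraries below both ePP-P9 libraries. IGF2R had 0.28 ± 0.08 (adjusted p = 0.135), with both ePP-P21 libraries above. The 6 other tested genes besides INS-IGF2 (-0.33 ± 0.14, adjusted p = 0.234) had log2 fold changes from -0.28 (IGF1R) to 0.28 (IGFBP5). Of the 6 neighbouring genes and 27 signalling genes tested, 0 were called, 3 and 7 having an unadjusted p under 0.05.

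Upstream sequences are shown for the binding protein genes whose window held 1 of the letter strings searched. RefSeq start sites were found for 8 of the 10 genes, and IGF2 and IGFBP1 were not among them. The 120 bases before the start were searched for TATAAA (found for IGFBP4, and for INS-IGF2 above), for TATATA (found for IGFBP3) and for TATTTAA (found for IGFBP5). These letters were chosen after the windows had been read, and matches can overlap each other. IGFBP3 (chr7:45921273-45921392, minus strand), IGFBP5 (chr2:216695550-216695669, minus strand) and IGFBP4 (chr17:40443330-40443449, plus strand, all GRCh38.p14) each held 1 of them, in capitals, beginning 30, 31 and 29 bases before the RefSeq start. The IGFBP3 window lies wholly inside the GENCODE gene, which reaches to position 45921874, so GENCODE places a start further upstream.

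IGFBP3: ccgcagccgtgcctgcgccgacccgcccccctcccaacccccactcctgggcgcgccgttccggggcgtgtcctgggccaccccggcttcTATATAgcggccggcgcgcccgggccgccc

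IGFBP5: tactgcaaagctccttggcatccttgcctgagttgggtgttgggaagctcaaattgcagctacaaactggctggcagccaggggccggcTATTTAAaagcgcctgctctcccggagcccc

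IGFBP4: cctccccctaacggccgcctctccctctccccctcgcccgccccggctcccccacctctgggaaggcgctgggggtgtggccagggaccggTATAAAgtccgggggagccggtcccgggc

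Among all 35116 windows of this length, 6.21% held at least 1 of the 3 letter strings on the gene strand. TATAAA was in 3.87% on the gene strand and 5.63% on either strand, TATTTAA in 0.983% and 1.79%, and TATATA, which reads the same on both strands, in 1.86%. The windows of IGFBP2, IGFBP6, IGF1R and IGF2R held none of the 3. The IGFBP3 window had 80.0% G and C and 17 CpG dinucleotides, whereas the IGFBP5 window had 57.5% and 3, beside medians of 60% and 6 over all windows.

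Of the 6 binding protein genes, 4 lie in 2 pairs, and IGFBP4 and IGFBP6 lie alone on chromosomes 17 and 12. IGFBP1 and IGFBP3 are 18584 bases apart on chromosome 7 in opposite orientation, and IGFBP2 and IGFBP5 are 7668 bases apart on chromosome 2, also in opposite orientation. Over the 9 group means, log2(TPM + 1) of IGFBP3 and IGFBP5, which lie on different chromosomes, had a Pearson's r of 0.896. IGFBP1 and IGFBP3 had 0.634. These values are descriptions over 9 points that share 3 batches.

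The protein-coding genes outside the axis most like a member over the 9 group means were picked by Pearson's r of log2(TPM + 1) among 11860 candidates. For IGF2 they were ENSG00000284779 (r = 0.9999), which shares its exons, and PRDM16 (0.986). For IGFBP2 they were GPAA1 (0.965), PDGFRB (0.963) and ISOC2 (0.956). For IGFBP3 they were C4orf19 (0.970), VIL1 (0.966) and LSAMP (0.960). For IGFBP5 they were GFRA3 (0.978), SMOC1 (0.977) and ADGRG1 (0.970). For IGFBP6 they were PARS2 (0.952), FRAT2 (0.950) and ID1 (0.924).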

How the data were processed

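The authors aligned paired-end reads to GRCh38 with HISAT2 2.1.0, assembled transcripts with StringTie and deposited TPM values per transcript-summed gene identifier, not scaled further from library to library. Which annotation release was used, and whether strand was, is not given in the sources used here. TPM keeps no record of read numbers, so depth is unknown and precision rests on 2 libraries per group. All 37 mitochondrial genes were listed at 0 in each library, so an exact 0 is reported only as listed.

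Symbols and positions came from GENCODE release 44, and upstream sequences from RefSeq (GRCh38.p14). Genes at 1 TPM or more in 2 or more libraries of a fit were tested with limma 3.58.1 (R 4.3.3) on log2(TPM + 1), which understates changes of low genes, with an intensity trend and Benjamini-Hochberg adjustment over all tested genes. Calls needed an adjusted p under 0.05 and a log2 fold change beyond 1, the study's thresholds. Tests were two-sided and each fit stayed within 1 batch. The ePP level was the mean of both passage means. Scripts were tested on simulated data. Alternatives changed the pseudocount, filter, scaling, libraries, replicate block and feature sums.

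All 10 members were named in each group. Of 2 surrounding gene lists, counts and up to 4 genes per direction were given, with IGF1, INS, INSR, H19 and IGF2-AS always, and 3 genes most like each of IGF2, IGFBP2, IGFBP3, IGFBP5 and IGFBP6. Members and lists were chosen with earlier results of these data known. A few genes that these rules would name are not reported here.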

Additional observations from a re-analysis of the deposited data

How the results depend on the processing

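In ePP-β versus ePP, IGF2R, IGFBP3 and IGFBP5 kept direction and call in every alternative that gave a value. IGFBP1 and IGFBP6 did so too, but each reached 1 TPM in 1 of the groups only. With the filter these genes had to differ, so their calls add nothing. With no filter the adjusted p was 0.00066 for IGFBP1 and 0.00043 for IGFBP6. INS-IGF2 lost its call in 2 alternatives and IGFBP4 in 1. IGFBP1 could not be tested when an ePP-β library was left out. In that comparison adjusted p alone called 10381 genes against 5020, and IGF2 turned to 0.13 (quantile normalization), 0.044 (without ePP-P9 replicate 1), 0.046 (without ePP-β replicate 1; the range without 1 library was -0.084 to 0.046), 0.38 (summed with INS-IGF2), 2.01 (summed with INS-IGF2 and INS) and 0.26 (4 overlapping features summed). The last 2 sums were chosen after seeing the data.

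In I-BET151 versus DMSO, 35 genes and 0 members were called. Pseudocounts of 0.1 and 0.01 and no filter called 0 genes, median centring 120 genes and 1 member, quantile normalization 138 and 1, all replicated libraries 1719 and 2, and leaving out 1 library 107 to 1034 genes and 1 to 2 members. IGFBP5 was called in 8 of 16 alternatives and IGFBP3 in 3. The range of adjusted p was 9.39e-05 to 0.234 for IGFBP5 and 0.0064 to 0.639 for IGFBP3. INS-IGF2 turned to -0.057 (median centring), -0.29 (without DMSO replicate 2) and -0.71 (without I-BET151 replicate 1). IGF2 turned to 0.033 (quantile normalization) and 0.10 (without I-BET151 replicate 2). IGFBP4 turned to 0.47 (without DMSO replicate 1) and 0.61 (without I-BET151 replicate 2), and IGFBP2 to -0.04 (without DMSO replicate 2) and -0.28 (without I-BET151 replicate 1). Without 1 library the ranges were -0.71 to 0.75 for INS-IGF2, -0.30 to 0.10 for IGF2, -1.20 to 0.61 for IGFBP4 and -0.28 to 1.40 for IGFBP2.

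In ePP-P21 versus ePP-P9, 178 genes were called, 0 with no filter or median centring, 13 with quantile normalization, 1 with all replicated libraries, 309 by adjusted p alone and 0 to 478 without 1 library (0 without ePP-P21 replicate 1, 2 without ePP-P21 replicate 2, 478 without ePP-P9 replicate 2). No member was called in any of these, and IGF1R turned to 0.070 without ePP-P21 replicate 1 (range without 1 library -0.64 to 0.070).

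With the replicate number as a block, 2294 genes and 2 members (IGFBP3 and IGFBP5, lower) were called in I-BET151 versus DMSO and 66 genes in ePP-P21 versus ePP-P9; it changed no member's call in the other 2 comparisons. Same-numbered libraries deviated together in batch 3 (r = 0.675 over 16687 genes) and not in batch 2 (-0.00933 to 0.0439), with only 2 pairs each, so the numbers were not taken as pairs. Rescaling to protein-coding genes without ribosomal protein genes kept the order of the groups for IGF2. Apart from the construction of an alternative, the cause of a change was not tested. Depth is unknown, and 2 libraries per group limit every comparison.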
